A study of Homo sapiens and Mus musculus with 19 samples.

Results

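BCR, ABL1, NUP214 and EXOSC2 are genes in or next to the stretches of chromosomes 22 and 9 that are amplified in K562, a human leukaemia cell line carrying the BCR-ABL1 fusion. They were chosen by name and position, not by any measured value, and are 4 of the 58721 genes in the K562 count tables. All 4 passed the filter on low counts, which left 26023 genes for testing. Chromatin-associated RNA (caRNA), the RNA that stays with the chromatin pellet after cytoplasm and nucleoplasm are washed away, was sequenced after ribosomal RNA depletion. The 12 K562 libraries formed 4 groups of 3 TET2 wild type (WT) or TET2 knockout (KO) libraries. By their titles, each carried a short hairpin RNA (shRNA) that was either a control (shControl) or directed at MBD6 (shMBD6). The paper made its K562 hairpin lines with lentivirus and puromycin selection, which all groups would then share. A supplementary sample list gives si names for these libraries, so the hairpin design rests on the titles. The WT and KO cells were generated in earlier work and given to the authors, and the number of clones behind each genotype was not given in the sources used here. The question addressed was whether caRNA from the amplified genes was equal between genotypes.

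K562 cells carry many copies of a rearranged segment in which the start of BCR is joined to the later exons of ABL1. BCR is a signalling protein with a coiled-coil domain, ABL1 is a tyrosine kinase, and the fusion protein is a constantly active kinase that defines chronic myeloid leukaemia. NUP214 is a nucleoporin on the cytoplasmic face of the nuclear pore and lies telomeric of ABL1 on the same amplified part of 9q34, whereas EXOSC2, a core subunit of the RNA exosome that trims and degrades RNA, lies just centromeric of ABL1. Reads counted over a whole gene cannot separate the fusion transcript from transcripts of the unfused alleles, and more copies of a gene cannot be told apart from more RNA per copy.

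On GRCh38 (hg38), all 4 genes lie on the plus strand. BCR (ENSG00000186716.20) spans chr22:23179704-23318037, EXOSC2 (ENSG00000130713.15) spans chr9:130693721-130707288, ABL1 (ENSG00000097007.17) spans chr9:130713043-130887675 and NUP214 (ENSG00000126883.16) spans chr9:131125573-131234663. The gap between EXOSC2 and ABL1 is 5.76 kb, and NUP214 starts 238 kb beyond the end of ABL1. The promoters are shown because they are where counted transcripts of each gene can begin, and because the fusion places ABL1 exons behind the BCR promoter. All 4 genes matched the RefSeq promoter table (GRCh38.p14), in which each entry holds 250 bases before and 50 after an annotated start. The windows are chr22:23180259-23180558 for BCR, chr9:130835004-130835303 for ABL1, chr9:131125336-131125635 for NUP214 and chr9:130693510-130693809 for EXOSC2. The ABL1 entry belongs to a start that lies 122 kb inside the annotated gene. Capitals mark, on either strand, the GC box GGGCGG, the CCAAT box CCAAT, the ETS core CCGGAA and the CRE core TGACG.
BCR: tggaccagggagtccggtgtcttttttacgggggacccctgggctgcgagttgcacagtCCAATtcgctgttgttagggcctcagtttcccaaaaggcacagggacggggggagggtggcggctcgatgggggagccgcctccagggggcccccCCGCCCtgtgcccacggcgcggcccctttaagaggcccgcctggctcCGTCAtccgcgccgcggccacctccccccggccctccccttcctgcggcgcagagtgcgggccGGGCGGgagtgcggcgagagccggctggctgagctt
ABL1: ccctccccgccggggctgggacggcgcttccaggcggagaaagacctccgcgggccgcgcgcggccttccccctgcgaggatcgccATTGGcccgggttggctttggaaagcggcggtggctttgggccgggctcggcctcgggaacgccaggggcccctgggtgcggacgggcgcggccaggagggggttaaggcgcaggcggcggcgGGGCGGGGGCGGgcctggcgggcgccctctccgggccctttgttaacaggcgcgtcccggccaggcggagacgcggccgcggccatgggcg
NUP214: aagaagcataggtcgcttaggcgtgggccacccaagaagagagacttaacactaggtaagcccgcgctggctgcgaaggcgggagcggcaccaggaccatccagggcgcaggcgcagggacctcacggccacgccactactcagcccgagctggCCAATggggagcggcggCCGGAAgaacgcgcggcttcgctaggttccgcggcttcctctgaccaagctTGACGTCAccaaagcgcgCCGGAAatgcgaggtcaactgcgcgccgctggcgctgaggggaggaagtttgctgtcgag
EXOSC2: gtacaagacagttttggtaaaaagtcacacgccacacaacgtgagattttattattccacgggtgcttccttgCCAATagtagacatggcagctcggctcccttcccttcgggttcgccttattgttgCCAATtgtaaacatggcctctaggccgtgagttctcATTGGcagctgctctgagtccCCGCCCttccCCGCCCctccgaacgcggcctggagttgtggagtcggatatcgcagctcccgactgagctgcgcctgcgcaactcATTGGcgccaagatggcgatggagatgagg

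The window of ABL1 held 42 CpG dinucleotides, that of NUP214 31, that of BCR 27 and that of EXOSC2 19, against a median of 14 over all 35116 promoters of the same length. GGGCGG occurred 2 times each in the BCR, ABL1 and EXOSC2 windows and 0 times in that of NUP214, and 45.0% of all promoters hold it. CCAAT occurred 4 times in the EXOSC2 window and 1 time in each of the others, and 34.6% of all promoters hold it. The NUP214 window held 2 matches to CCGGAA, present in 17.2% of promoters, and 2 overlapping matches to TGACG on opposite strands, while BCR held 1 match to TGACG, present in 24.6% of promoters. The letters AGATAA, bound by GATA factors, and TATAAA were not in any of the 4 windows and occur in 10.3% and 11.5% of promoters. These matches describe the letters only.

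Library checks came before the comparisons. Libraries held 52158403 to 102070223 counts in genes, and replicates of a group differed by more than sampling noise (chi-square per degree of freedom from 5.30 to 14.9). The labels do not say that replicates came from separate cultures, so p-values of the tests across genes measure the spread between these libraries, which may be technical. Normalised counts (CPM, counts scaled to 1000000 per library with library sizes adjusted by the trimmed mean of M-values, TMM) of TET2, the RNA and DNA m5C dioxygenase, were 118 to 124 in WT shControl and 127 to 131 in KO shControl, and 117 to 125 in WT shMBD6 against 91.6 to 101 in KO shMBD6. Whole-gene counts do not check a small deletion. MBD6, the methyl-CpG-binding-domain protein targeted by the hairpin, ran from 38.6 to 43.3 CPM in WT shControl and from 25.7 to 31.0 in WT shMBD6, but from 29.4 to 30.8 in the KO libraries labelled shControl and from 30.6 to 38.3 in those labelled shMBD6. MBD6 was thus not lower in the KO libraries labelled shMBD6 (log2 difference 0.19, SE 0.08, adjusted p = 0.0574 by edgeR's quasi-likelihood test). Directions between the KO libraries labelled shControl and shMBD6 rest on those labels. So do the genotype differences with either shRNA alone, the interactions and any order of the 4 groups. The cells are labelled as lymphoblasts: 9 or 10 of 12 erythroid markers reached a mean of 1 CPM in each group, against 3 of 12 lymphoid and 3 of 10 granulocyte and monocyte markers. ELANE and S100A8 were at 0, but so were the erythroid markers HBG2 and HBE1. The lymphoid marker RAG1 averaged 25.9 CPM, and the granulocyte and monocyte markers CSF3R and ITGAM 6.08 and 2.97 CPM.

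BCR, ABL1 and NUP214 were among the most abundant caRNAs of these cells. NUP214 averaged 1303 CPM and ABL1 1252 CPM, ranks 21 and 25 among 16267 tested protein-coding genes, and BCR averaged 713 CPM, rank 93. EXOSC2, the neighbour just outside, averaged 45.3 CPM. Per kb of gene, the level of NUP214 was 11.9 CPM per kb, that of ABL1 7.17, that of BCR 5.15 and that of EXOSC2 3.34, against a median of 0.450 for protein-coding genes. These levels lay at percentiles 99.5, 98.5, 97.1 and 93.3. In the 3 control mouse embryonic stem cell libraries of the same series, the levels per kb of Nup214, Abl1, Bcr and Exosc2 lay at percentiles 81.2, 75.9, 57.0 and 89.9 of 17120 protein-coding genes, so that BCR stood furthest from its mouse counterpart and EXOSC2 closest. The species and cell type both differ in that description.

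**Figure D1:**
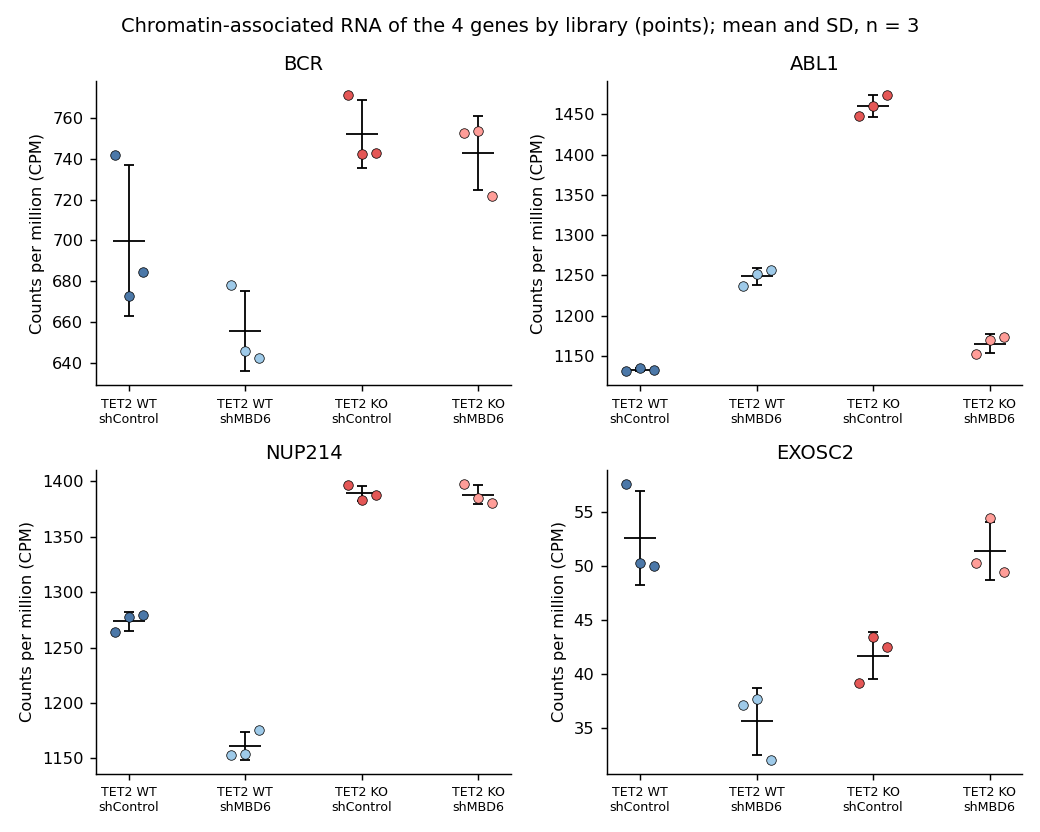
CPM (vertical axes, which do not start at 0) of BCR, ABL1, NUP214 and EXOSC2 in each of the 12 libraries (points) by group, with the group mean and SD (n = 3). ABL1 is highest in KO shControl, NUP214 is lowest in WT shMBD6, and EXOSC2 is lower in WT shMBD6 and KO shControl than in the other groups.

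As a share of all gene counts, the 4 genes together lay in a narrow range. The shares were 0.328%, 0.320% and 0.321% in WT shControl, 0.342%, 0.336% and 0.339% in WT shMBD6, 0.333%, 0.328% and 0.328% in KO shControl, and 0.334%, 0.332% and 0.326% in KO shMBD6. The lowest of the 12 libraries stood at 0.320% and the highest at 0.342%. KO minus WT averaged over the shRNAs was -0.0011 percentage points (two-sided exact permutation within shRNA, p = 0.730, adjusted p = 0.790 over the 2 sums tested). For BCR, ABL1 and NUP214 without EXOSC2 it was -0.0009 percentage points (exact permutation p = 0.790). Within each shRNA, KO minus WT for these 3 was 0.0081 with shControl and -0.0099 with shMBD6 (exact permutation p = 0.1 each). For all 4 genes it was 0.0065 (exact permutation p = 0.2) and -0.0087 (p = 0.1) in that order. The averages thus join differences of opposite sign, which also set the permutation spread, so their p-values do not measure the spread between replicate libraries. The 3 WT shMBD6 libraries lay above the 3 WT shControl libraries by 0.0159 percentage points for all 4 genes (exact permutation p = 0.1, the smallest that 3 against 3 allow), whereas the KO libraries labelled shMBD6 and shControl differed by 0.0008 (exact permutation p = 0.9). These values do not show equality beyond this spread, and the sum hid differences of opposite sign between its members.

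The count of BCR, which supplies the promoter and first exons of the fusion, was 742, 673 and 684 CPM in WT shControl and 678, 646 and 643 CPM in WT shMBD6. In KO it was 771, 742 and 743 CPM with shControl and 753, 754 and 722 CPM with shMBD6. Each KO group thus lay above its WT counterpart without overlap, whereas the 2 shRNA groups overlapped within each genotype. KO exceeded WT by 0.10 on the log2 scale with shControl (95% CI 0.04 to 0.16, adjusted p = 0.00414, but -0.07 with total counts) and by 0.18 with shMBD6 (CI 0.12 to 0.24, adjusted p = 4.31e-06, but -0.04 with TMM on abundant genes). BCR fell by 0.09 with shMBD6 in WT (adjusted p = 0.0101), but took the other sign under each of the other scalings (0.02 with DESeq2 size factors), and the call was lost without WT shControl replicate 1 (-0.06, adjusted p = 0.118) or without WT shMBD6 replicate 3 (-0.08, adjusted p = 0.0559). In KO the same difference was -0.02 (CI -0.08 to 0.04), and the interaction, the KO minus the WT shRNA difference, was 0.08 (adjusted p = 0.137).

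ABL1, the kinase partner of the fusion, separated all 4 groups. It was 1131, 1135 and 1132 CPM in WT shControl and 1237, 1252 and 1257 CPM in WT shMBD6. It was 1447, 1460 and 1474 CPM in KO shControl and 1152, 1169 and 1174 CPM in KO shMBD6. No group overlapped another, in the order WT shControl, KO shMBD6, WT shMBD6 and KO shControl. With shControl, ABL1 was 28.9% higher in KO (log2 0.37, CI 0.33 to 0.41, adjusted p = 6.55e-17), whereas with shMBD6 it was lower in KO (log2 -0.10, CI -0.14 to -0.06, adjusted p = 6.98e-05). It rose with shMBD6 in WT by 0.14 (adjusted p = 4.89e-07) and was 0.33 lower on the log2 scale in the KO libraries labelled shMBD6 than in those labelled shControl (adjusted p = 4.22e-15). The summed CPM of 12 erythroid markers ran in the reverse order of ABL1, from 1111 to 1139 in WT shControl, 797 to 813 in KO shMBD6, 702 to 718 in WT shMBD6 and 559 to 568 in KO shControl, and its part in the ABL1 result was not tested.

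NUP214, at the far end of the 9q34 segment, was 1264, 1277 and 1280 CPM in WT shControl and 1153, 1154 and 1176 CPM in WT shMBD6. In KO it was 1396, 1383 and 1387 CPM with shControl and 1398, 1385 and 1381 CPM with shMBD6. The KO groups lay above both WT groups and covered the same range as each other. KO exceeded WT by 0.13 with shControl (CI 0.08 to 0.17, adjusted p = 2.59e-06, but -0.05 with total counts) and by 0.26 with shMBD6 (CI 0.22 to 0.30, adjusted p = 5.58e-13) on the log2 scale. NUP214 fell by 0.13 with shMBD6 in WT (adjusted p = 1.02e-06), a call lost with DESeq2 size factors (-0.02) and turned with TMM on abundant genes (0.03), while in KO the difference was -0.0010 (CI -0.04 to 0.04).

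EXOSC2, which sits next to ABL1, changed most in relative terms. It was 57.7, 50.3 and 50.0 CPM in WT shControl and 37.1, 37.6 and 32.0 CPM in WT shMBD6. It was 39.2, 43.4 and 42.5 CPM in KO shControl and 50.3, 54.5 and 49.5 CPM in KO shMBD6. The WT shControl and KO shMBD6 libraries were high and overlapped, and the other two groups were low. KO was lower than WT with shControl (log2 -0.34, CI -0.47 to -0.20, adjusted p = 8.56e-05) and higher with shMBD6 (log2 0.53, CI 0.39 to 0.67, adjusted p = 4.20e-08). EXOSC2 fell by 0.56 with shMBD6 in WT (adjusted p = 1.78e-08) and was 0.30 higher in the KO libraries labelled shMBD6 (adjusted p = 4.49e-04). MBD6 itself was also highest in WT shControl and second highest in KO shMBD6, and its part in the EXOSC2 result was not tested. The share of gene counts from mitochondrial genes also split the libraries this way, at 0.0220% to 0.0238% in WT shControl and 0.0233% to 0.0273% in KO shMBD6, against 0.0405% to 0.0499% in WT shMBD6 and 0.0483% to 0.0540% in KO shControl. Its part in the result was not tested either.

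Many genes differed in every comparison, so a call on a member is not unusual in these data. With shControl, all 4 members passed the test between genotypes under TMM, 3 higher and 1 lower in KO, where 45.8% of all genes tested did (23.5% higher and 22.3% lower). With shMBD6, 3 were higher and 1 lower, against a background of 58.6% (30.1% higher and 28.5% lower). With shMBD6 in WT all 4 passed, against 42.5% of all genes, and between the KO libraries by shRNA label 2 of 4 passed, against 36.4%. The interaction was called for 3 of 4 members, against 49.4%. Averaged over the shRNAs, 3 of 4 were higher in KO and none lower, against 52.7% of genes called in either direction (27.7% higher and 25.0% lower). Among protein-coding genes at the members' own levels, 48.0% were called higher at 3 to 10 CPM per kb and 50% above 10. The comparisons share libraries and are not independent of each other.

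**Figure D2:**
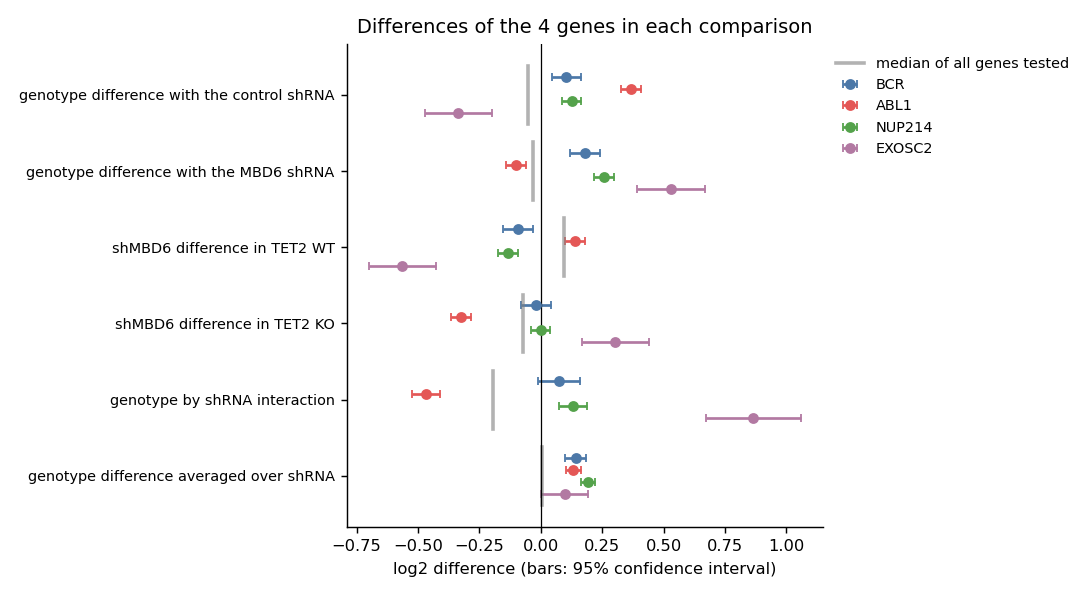
Fitted log2 differences (horizontal axis) of BCR, ABL1, NUP214 and EXOSC2 in 6 comparisons (rows), with 95% confidence intervals, and the median of the 26023 genes tested (grey bars). ABL1 and EXOSC2 take opposite signs in every comparison except the genotype difference averaged over shRNA, where all 4 lie between 0.10 and 0.19 with the TMM scaling plotted and between -0.07 and 0.03 with total counts.

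Averaged over the 2 shRNAs, a comparison that does not depend on the shRNA labels of the KO libraries, the 4 members had similar genotype differences. KO exceeded WT on the log2 scale by 0.14 for BCR (CI 0.10 to 0.18, adjusted p = 7.49e-07), 0.13 for ABL1 (CI 0.10 to 0.16, adjusted p = 1.01e-09) and 0.19 for NUP214 (CI 0.16 to 0.22, adjusted p = 1.39e-13). EXOSC2 had a difference of 0.10 (CI 0.00 to 0.19, adjusted p = 0.0845). These values depend on the scaling. With libraries scaled to total gene counts in place of TMM, the same differences were -0.02 for BCR (adjusted p = 0.475), -0.03 for ABL1 (adjusted p = 0.0376), 0.03 for NUP214 (adjusted p = 0.0609) and -0.07 for EXOSC2 (adjusted p = 0.255), while the gene in the middle of the distribution went from 0.00 to -0.16. Set against the median of all genes in the TMM fit, BCR stood 0.14 above, ABL1 0.13, NUP214 0.19 and EXOSC2 0.09. The median of all genes includes many genes of low level, which were often lower in KO (69.1% of the 2632 under 0.01 CPM per kb). At the level of BCR, ABL1 and EXOSC2 (3 to 10 CPM per kb, 1207 protein-coding genes) the median difference was 0.07, and at that of NUP214 (above 10, 104 genes) it was 0.08, so the members stood less far from genes of their own level than from all genes. With total counts, 3 of the 4 differences were below 0.

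In the single comparisons the scaling had the same effect on the small differences and left the large ones. The median of all genes was -0.05 with shControl and -0.03 with shMBD6 for the genotype difference, 0.10 for shMBD6 in WT and -0.07 in KO, and total counts moved it to -0.23, -0.18, 0.19 and 0.04. Against the median, ABL1 stood 0.42 higher in KO with shControl and 0.07 lower with shMBD6, NUP214 0.18 and 0.29 higher, and BCR 0.16 and 0.21 higher. EXOSC2 stood 0.28 below the median with shControl and 0.56 above it with shMBD6. For shMBD6 in WT, ABL1 stood only 0.04 above the median and EXOSC2 0.66 below it. In KO they stood 0.25 below and 0.38 above. ABL1 and EXOSC2 kept sign and call in both genotype comparisons under each scaling tried.

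Ratios between members within each library do not depend on any scaling, and they differed crosswise among the groups. NUP214 counts over ABL1 counts were 1.12, 1.13 and 1.13 in WT shControl and 0.932, 0.922 and 0.935 in WT shMBD6. They were 0.965, 0.948 and 0.941 in KO shControl and 1.21, 1.18 and 1.18 in KO shMBD6. The 4 groups did not overlap, and NUP214 exceeded ABL1 in all 6 libraries of WT shControl and KO shMBD6 and in 0 of the other 6. The genotype difference of the log2 ratio was -0.24 with shControl and 0.36 with shMBD6, each at the smallest p that 3 against 3 libraries can give (exact permutation p = 0.1). Averaged over the shRNAs it was 0.06 (exact permutation p = 0.575, adjusted p = 0.915 over 5 ratios), or 0.0515 to 0.0627 with each library left out. Permuting within each shRNA mixes groups with large opposite differences, so such a p is large whenever these nearly cancel. The p of the average therefore does not measure the spread between replicate libraries.

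The mitochondrial share given above followed the same split, as did the share of reads ambiguous between genes, which was 4.96% to 5.24% in WT shControl and KO shMBD6 and 4.63% to 4.80% in the other groups, and the part of either in the ratios was not tested.

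The other ratios had the same crosswise order. ABL1 over EXOSC2 was 19.6, 22.6 and 22.7 in WT shControl and 33.3, 33.3 and 39.2 in WT shMBD6. It was 36.9, 33.6 and 34.7 in KO shControl and 22.9, 21.5 and 23.7 in KO shMBD6, so that WT shControl and KO shMBD6 formed a low range and the other groups a high one. BCR over ABL1 ran from 0.593 to 0.656 in WT shControl and from 0.615 to 0.653 in KO shMBD6, against 0.511 to 0.548 in WT shMBD6 and 0.504 to 0.533 in KO shControl. Averaged over the shRNAs, the log2 genotype differences of the 5 ratios lay between 0.01 and 0.09, with exact permutation p from 0.500 to 0.915 and an adjusted p of 0.915 for each. Each average joins large differences of opposite sign, so these p-values do not show equality and do not measure the spread between replicates. The difference of the shRNA differences, KO minus WT, was -1.33 for ABL1 over EXOSC2, -0.73 for NUP214 over EXOSC2, -0.79 for BCR over EXOSC2, 0.60 for NUP214 over ABL1 and 0.54 for BCR over ABL1. It was computed after the crosswise order was seen and is given with no test, and the 5 ratios share 4 genes.

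**Figure D3:**
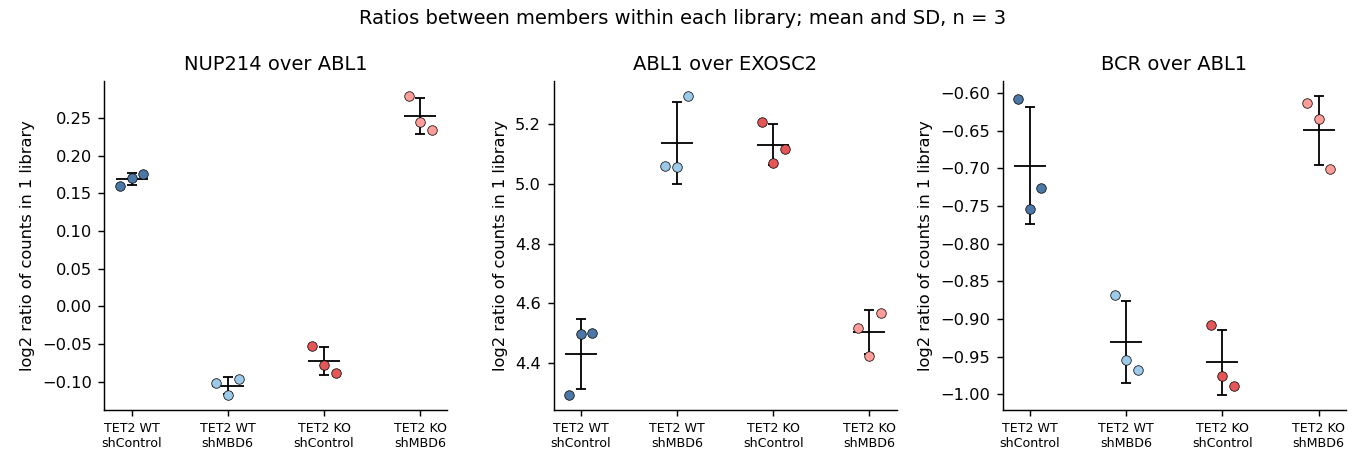
Log2 ratios of counts within each library (vertical axes) for NUP214 over ABL1, ABL1 over EXOSC2 and BCR over ABL1, by group, with mean and SD (n = 3). For NUP214 over ABL1, WT shControl and KO shMBD6 lie above 0 and the other groups below.

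Over the 12 libraries, log2 CPM of BCR and NUP214 had a Pearson r of 0.87, ABL1 and EXOSC2 one of -0.54, and ABL1 had 0.29 with BCR and 0.27 with NUP214. The points share 4 groups of 3 libraries, so these values describe the group pattern. Among the 5862 genes whose mean log2 CPM reached 5, the gene most like BCR was POR (r = 0.98), the gene most like ABL1 was SLC44A5 (r = 0.995), the gene most like NUP214 was NFIB (r = 0.99) and the gene most like EXOSC2 was MAPRE1 (r = 0.98). The next in order were NISCH, GALNT12, EXOC3 and IDUA for BCR, ANO6, PHF21A, ZNF782 and FBXO11 for ABL1, ESCO1, DROSHA, NBN and COPS2 for NUP214, and TRMU, THAP7, DGCR8 and C2CD2L for EXOSC2. No member was among the 5 genes most like another member.

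Within 1 Mb of ABL1 or BCR, 40 other protein-coding genes were tested. Several low-level genes beside the members had larger genotype differences than the members, but not all low-level neighbours were called. Averaged over the shRNAs, PLPP7, telomeric of NUP214, had -0.20, and ZNF280A, centromeric of BCR, had 0.49. Telomeric of BCR, RGL4 had -0.41 and SMARCB1 0.13. None of these was called. QRFP, FIBCD1, LAMC3 and AIF1L, the 4 genes listed between ABL1 and NUP214, were all lower in KO averaged over the shRNAs. LAMC3, which encodes a laminin chain, had group means of 2.92 CPM in WT shControl, 9.34 in WT shMBD6, 0.772 in KO shControl and 0.447 in KO shMBD6 (log2 genotype difference -3.15, SE 0.19, adjusted p = 7.74e-16). FIBCD1, on the opposite strand, had means of 1.33, 4.20, 0.306 and 0.541 CPM in the same order (log2 -2.56, SE 0.29, adjusted p = 3.18e-09), and AIF1L fell by 1.17 (SE 0.19, adjusted p = 5.07e-06). On the centromeric side of BCR, RAB36 fell by 2.95 (SE 0.42), IGLL5 by 3.64 (SE 0.78), RSPH14 by 1.99 (SE 0.14) and GNAZ by 0.47 (SE 0.11), where GNAZ was higher in KO with shControl (log2 0.84, adjusted p = 2.85e-05). Centromeric of EXOSC2, the low-level genes PRDM12 and HMCN2 fell by 2.13 (SE 0.79, adjusted p = 0.0237) and 1.99 (SE 0.31, adjusted p = 1.54e-06), so such differences were not restricted to the stretch from ABL1 to NUP214. The calls of all 10 genes held under DESeq2 size factors, total counts and TMM on abundant genes. Genes almost absent from KO, such as PRDM12 and IGLL5, could pass the low count filter through their WT libraries alone. Their falls are therefore not independent of that filter.

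Other neighbours included genes with rises and genes with small differences. On the centromeric side of EXOSC2, ASS1, an enzyme of arginine synthesis, averaged 37.4 CPM and was 0.50 higher in KO (adjusted p = 1.60e-10), and FNBP1, at 57.6 CPM, was 0.85 higher (adjusted p = 1.17e-17), both called under each scaling. FUBP3, centromeric of EXOSC2, averaged 164 CPM and had a difference of 0.14 averaged over the shRNAs (adjusted p = 1.22e-05), and CABIN1, telomeric of BCR, one of 0.11 (adjusted p = 1.28e-04), but with total counts these were -0.03 and -0.05. FAM78A, telomeric of NUP214, was 0.51 higher in KO (adjusted p = 1.13e-13), and DRICH1 and ZNF70, telomeric of BCR, were 1.05 and 0.63 higher, each under all of the scalings. Counted by side, against 27.7% higher and 25.0% lower over all genes, 7 of the 14 tested genes centromeric of ABL1, EXOSC2 included, were higher and 3 lower, but 3 higher and 5 lower with total counts. Of the 11 on the telomeric side, NUP214 included, 4 were higher and 5 lower (2 and 5 with total counts). Around BCR, 0 of 7 centromeric genes were higher and 5 were lower under every scaling, and of 10 telomeric genes 4 were higher and 0 lower (2 and 1 with total counts).

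**Figure D4:**
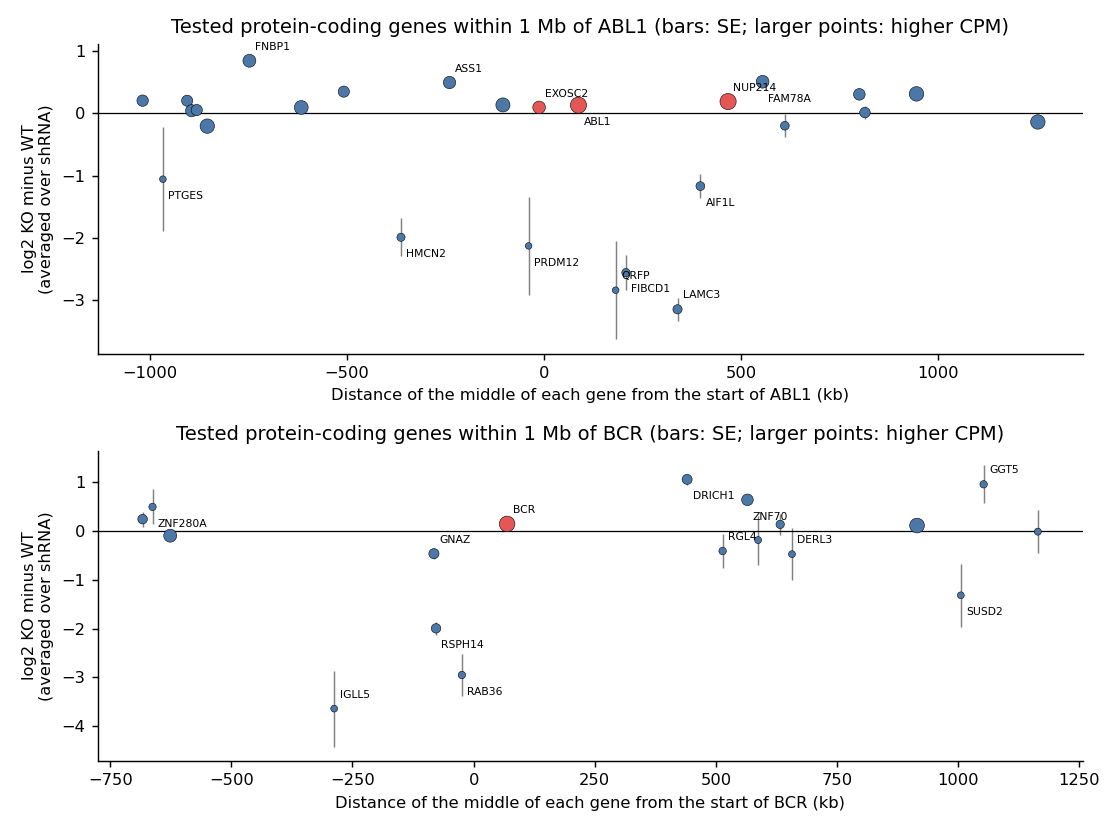
Log2 genotype difference averaged over shRNA (vertical axes, bars are SE) of tested protein-coding genes within 1 Mb of ABL1 (top) and of BCR (bottom), against the distance of the gene's middle from the start of ABL1 or BCR in kb; larger points have higher CPM, members are red, and names are given for members and for differences of at least 0.4. The low-level genes QRFP, FIBCD1, LAMC3 and AIF1L lie between -3.15 and -1.17, between ABL1 and NUP214 at 0.13 and 0.19.

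Per kb, the low-level genes beside the members varied among the groups. QRFP, FIBCD1, LAMC3 and AIF1L pooled, a set read out after its values were seen, ran from 0.0372 to 0.0512 CPM per kb in WT shControl, 0.109 to 0.138 in WT shMBD6, 0.0134 to 0.0208 in KO shControl and 0.0108 to 0.0212 in KO shMBD6. The groups of different genotype did not overlap, and WT shMBD6 stood above all others. IGLL5, RSPH14, GNAZ and RAB36 pooled ran from 0.0459 to 0.0549 in WT shControl, 0.132 to 0.148 in WT shMBD6, 0.0569 to 0.0690 in KO shControl and 0.0237 to 0.0307 in KO shMBD6. The first quartile over 14220 autosomal protein-coding genes of at least 10 kb, a general low level, was also highest in WT shMBD6, with means of 0.00852, 0.0181, 0.00734 and 0.00466 CPM per kb in WT shControl, WT shMBD6, KO shControl and KO shMBD6. LAMC3 alone averaged 4.02 and 6.02 times that quartile in the WT groups and 1.22 and 1.13 times in the KO groups.

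Among the genes tested, the direction went with the level. The low count filter keeps a gene that reaches the minimum in any 3 libraries. Genes almost absent from KO can thus enter through WT alone, so the shares at the lowest levels are not independent of the filter. Of 2632 tested protein-coding genes under 0.01 CPM per kb, 69.1% were called lower in KO averaged over the shRNAs, whereas of the 1417 genes between 0.03 and 0.1, where all of the 8 pooled genes but GNAZ lay, 15.9% were lower and 27.1% higher, with a median of 0.08. HMCN2 and PRDM12 lay under 0.01. The low level is small beside the members: the pooled genes between ABL1 and NUP214 amounted to 0.676% of the ABL1 level per kb in WT shControl, 1.72% in WT shMBD6, 0.198% in KO shControl and 0.256% in KO shMBD6. Taking that level off each library moved the ABL1 genotype difference from 0.37 to 0.37 with shControl and from -0.10 to -0.08 with shMBD6. The largest move for BCR was from 0.18 to 0.22 with shMBD6. EXOSC2 was left out of this step, and what the low-level reads are was not tested.

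**Figure D5:**
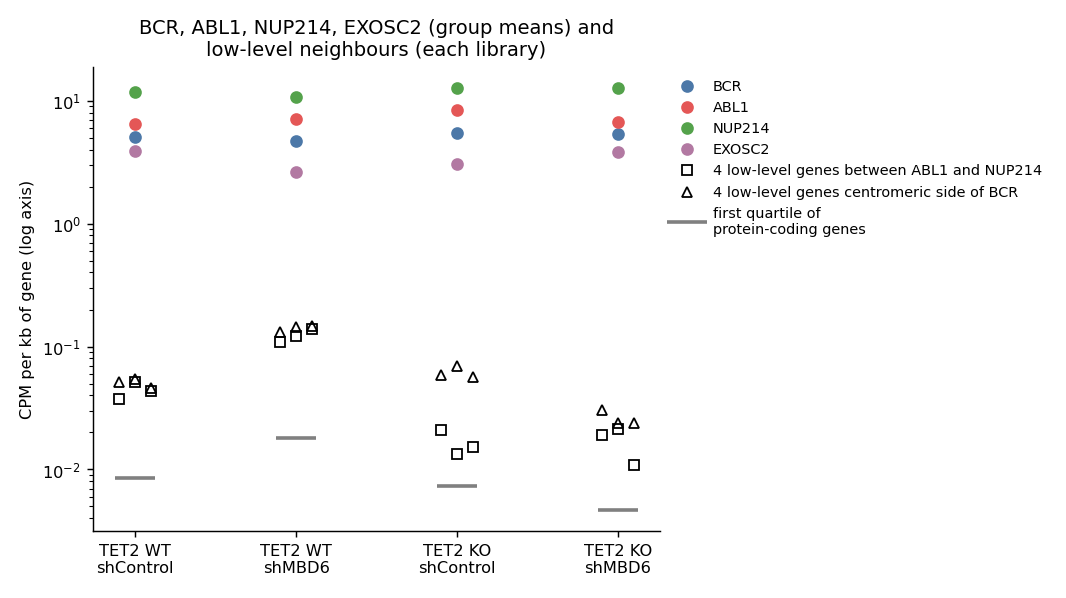
CPM per kb of gene on a log axis by group, for the means of BCR, ABL1, NUP214 and EXOSC2 (filled circles), for 4 pooled genes between ABL1 and NUP214 (squares) and 4 pooled genes centromeric of BCR (triangles) in each library, and for the mean first quartile of protein-coding genes (grey bars). The low-level genes are highest in WT shMBD6, where the first quartile is also highest at 0.0181.

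The genes that work with the members were described by lists. EXOSC2 shared its pattern with most of the tested RNA exosome genes. Of 13, EXOSC2 included, 10 were lower with shMBD6 in WT, where 24.7% of all genes were lower, and 8 were higher in the KO libraries labelled shMBD6, against 15.7%. The interaction was called higher for 9 of 13, against 23.9%, and lower for 1, C1D. For the single comparisons and the interaction no share at the level of these genes is given. With shControl, 6 were lower in KO and 2 higher, against 22.3% and 23.5% of all genes. With shMBD6, 10 were higher and 1 lower, against 30.1% and 28.5%. EXOSC9, a subunit of the RNase PH-like ring, had log2 genotype differences of -0.33 with shControl and 0.81 with shMBD6, and MPHOSPH6, an exosome cofactor, had -0.38 and 0.34. C1D went against the pattern, with 0.36 and -0.11 (the second not called), and EXOSC6 was lower with both, at -0.24 and -0.19. The median over the list was -0.16 with shControl and 0.48 with shMBD6, beside -0.05 and -0.03 over all genes. The interaction count was 9 under each of the other scalings, while the 10 lower with shMBD6 in WT became 7 to 9 and the 6 lower in KO with shControl became 7 to 9. Averaged over the shRNAs, 9 were higher and 1 lower in KO, where 27.7% and 25.0% of all genes were, but 3 and 2 with total counts. At 0.3 to 10 CPM per kb, where these genes lay, 45.0% to 52.2% of protein-coding genes were higher and 11.1% to 18.1% lower. The rises were led by DIS3L, a cytoplasmic exosome nuclease (log2 0.98, adjusted p = 7.50e-19), EXOSC4 (0.73) and EXOSC5 (0.35, with 0.18 and no call under total counts). EXOSC6 fell by 0.21.

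NUP214 was accompanied by other proteins of the cytoplasmic face of the nuclear pore and its export receptors. Of 11 tested genes, NUP214 included, 8 were higher and 0 lower in KO averaged over the shRNAs, where 27.7% of all genes and 52.2% of protein-coding genes at 1 to 3 CPM per kb were higher, with a median of 0.18 beside 0.00 over all genes, whereas total counts gave 2 higher, 1 lower and a median of 0.01. NUP88, the partner of NUP214 in the pore, was 0.26 higher and the export receptor XPO1 0.24 higher, both called under each scaling, and NUP42 was 0.20 higher (0.04 with total counts). The smallest of the called differences were 0.13 for NUP98 and RANBP2 and 0.18 for RAE1, which with total counts were -0.04, -0.03 and 0.01. The averages of RAE1 and NUP42 join called differences of opposite sign. RAE1 had -0.35 with shControl and 0.70 with shMBD6, and NUP42 had -0.18 and 0.59. With shMBD6, 9 were higher in KO and 0 lower, against 30.1% and 28.5% of all genes, but 5 were higher with TMM on abundant genes. With shControl 3 were higher and 3 lower, against 23.5% and 22.3%, but 1 and 7 with total counts. With shMBD6 in WT 7 were lower, against 24.7%, but 3 lower and 2 higher with TMM on abundant genes. The interaction was called higher for 7 and lower for 0, against 23.9% higher, but 5 and 2 with TMM on abundant genes. The exosome pattern was thus not particular to that list.

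Genes that couple BCR-ABL1 to growth signalling moved in both directions. Of 38 tested adaptors and effectors, 16 were higher and 8 lower in KO averaged over the shRNAs, where 27.7% and 25.0% of all genes were, with a median of 0.02, against 8 higher, 21 lower and a median of -0.15 under total counts. Most of the list lay at 0.3 to 10 CPM per kb, where 45.0% to 52.2% of protein-coding genes were higher and 11.1% to 18.1% lower. Averaged over the shRNAs, the 6 genes named here kept direction and call under each scaling. The MAP kinase kinase MAP2K1 was 0.75 higher, with group means of 79.5 and 77.4 CPM in WT against 146 and 119 CPM in KO for shControl and shMBD6. PIK3R1, a regulatory subunit of PI3 kinase, was 0.49 higher and STAT5A, a transcription factor activated by the fusion kinase, 0.47 higher. SOS1, an exchange factor for RAS, fell by 0.42, the kinase gene PIM1 by 0.35 and the adaptor DOK2, at about 1 CPM or less, by 0.88. PIM1 differed by -0.71 with shControl but by 0.01 with shMBD6, and DOK2 by -1.13 and -0.63. Neither was called with shMBD6.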

How the data were processed

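The deposited tables held raw read counts per gene, 1 table per library, made by the authors by trimming reads with Trimmomatic 0.39, aligning them to hg38 with HISAT2 2.2.1 and counting with HTSeq 0.12.4. Lines naming no gene stayed out of library sizes and tests; reads outside genes were 13.1% to 16.0% of records. The tables held 0 ERCC lines, so every value is relative to the other genes of its library. Counts behaved as counts by strand over whole gene spans: 95.5% of 7459 genes inside a gene on the same strand were at 0 in every K562 library, against 22.1% of 10389 inside a gene on the opposite strand. GENCODE names matched 99.2% of identifiers.

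Tests across genes used edgeR 4.0.16 (limma 3.58.1, R 4.3.3; quasi-likelihood, TMM, filterByExpr at a minimum of 10 counts, all 12 K562 libraries in 4 groups) with 6 contrasts, two-sided tests, Benjamini-Hochberg adjustment of p-values across 26023 genes, and a call at 0.05. TMM on abundant genes took its factors from genes whose mean log2 CPM reached 5. Intervals came from the fitted standard error (SE). CPM used TMM-scaled library sizes. Ratios and shares were tested by exact permutation of genotype within shRNA (400 arrangements; smallest p 0.005). The scripts were tested on simulated data. Alternatives were DESeq2 1.42.0, other scalings and filters, the replicate block, fits of only the groups compared, other denominators of the shares, and leaving out each library. The members and gene lists were chosen with earlier results of these data known. Named neighbours were taken from the nearest tested genes on each side and list genes were the 3 largest rises and falls among those called averaged over the shRNAs. EXOSC9, MPHOSPH6, C1D, NUP98, RANBP2, RAE1, ASS1, FNBP1, HMCN2, PRDM12, FUBP3, FAM78A, PLPP7, CABIN1, DRICH1, ZNF70, ZNF280A, RGL4 and SMARCB1 were singled out after their values were seen. The mouse knockdown libraries and the Pspc1 library were not used here.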

Additional observations from a re-analysis of the deposited data

Results flagged for a closer look

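For 3 of the 4 genes the difference between shMBD6 and shControl itself differed between genotypes by a test of that difference (edgeR's quasi-likelihood interaction). For ABL1 the interaction was -0.47 on the log2 scale (SE 0.03, adjusted p = 1.60e-15): ABL1 was higher with shMBD6 in 3 of 3 WT libraries and lower in 3 of 3 KO libraries so labelled, beyond the range of the shControl libraries in each case. For EXOSC2 it was 0.87 (SE 0.09, adjusted p = 2.16e-09), with the opposite signs and again no overlap. For NUP214 it was 0.13 (SE 0.03, adjusted p = 1.65e-04), where the KO groups overlapped, but 0.03 and not called with DESeq2 size factors and -0.02 with TMM on abundant genes. The median of all genes in this contrast was -0.19. Among all genes tested, the interaction of ABL1 lay at percentile 42.5, that of NUP214 at 61.2 and that of EXOSC2 at 85.2. MBD6 had an interaction of 0.75 (SE 0.11), and the agreement of the KO shRNA labels with the hairpins could not be settled from these counts.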

How the results depend on the processing

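ABL1 and EXOSC2 kept direction and call in the 4 single comparisons and the interaction under every setting run. The small differences of BCR and NUP214, and the averaged genotype differences, moved with the scaling, which shifts all genes of a library together. All values are log2 differences unless another unit is given.

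With DESeq2 size factors, BCR was 0.0604 for genotype with shMBD6, 0.0151 for shMBD6 in WT and -0.0224 for the interaction, and NUP214 was -0.0239 for shMBD6 in WT, 0.00986 in KO and 0.0338 for the interaction. DESeq2's Wald test gave 0.0608, 0.0149, -0.0224, -0.0244, 0.00963 and 0.0340 for the same 6 results. With total gene counts, BCR was -0.0731 for genotype with shControl, 0.0316 with shMBD6, 0.00274 for shMBD6 in WT, 0.11 in KO and -0.0208 averaged. NUP214 was -0.0522 for genotype with shControl, -0.0367 for shMBD6 in WT, 0.12 in KO and 0.0284 averaged, and the averaged ABL1 and EXOSC2 were -0.0298 and -0.0659. Genes called higher in the averaged genotype difference numbered 4160, against 7203 with TMM.

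With TMM on abundant genes, BCR was 0.0463 for genotype with shControl, -0.0351 with shMBD6, 0.0734 for shMBD6 in WT, -0.0814 for the interaction and 0.00556 averaged. NUP214 was 0.0339 for shMBD6 in WT, 0.00919 in KO and -0.0248 for the interaction, and the averaged ABL1 and EXOSC2 were -0.00347 and -0.0396. Genes called higher numbered 4896 for genotype with shMBD6, against 7837, and 4490 averaged. With no filter, BCR and NUP214 were 0.0105 and -0.0289 for shMBD6 in WT and 0.0306 and 0.0479 in KO, and the NUP214 interaction was 0.0767. With the stricter filter, BCR was -0.0354 for shMBD6 in WT and NUP214 0.00398 in KO. Fitting only the groups compared gave 0.0301 for BCR and 0.0474 for NUP214 for shMBD6 in KO. The cause of the moves with the filter and the samples fitted was not tested.

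Same-numbered replicates did not deviate together (correlations from -0.0174 to 0.0201 over 18 pairs), so the numbers do not pair the samples. The replicate block called the BCR interaction (0.0757, adjusted p = 0.0285 by edgeR) and changed no other call.

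Leaving out each library gave -0.126 to -0.0568 for BCR with shMBD6 in WT, -0.0299 to 0.000493 for BCR and -0.00608 to 0.00143 for NUP214 in KO, 0.0379 to 0.107 for the BCR interaction and 0.0616 to 0.134 for averaged EXOSC2. EXOSC2 passed the averaged test without WT shControl replicate 1, WT shMBD6 replicate 2 or KO shControl replicate 1, and the BCR interaction passed without WT shControl replicate 2 or WT shMBD6 replicate 1. Averaged log2 ratios ran from -0.000495 to 0.0732 for ABL1 over EXOSC2 and from -0.00480 to 0.0317 for BCR over ABL1. The genotype difference of the share ran from -0.00198 to 9.74e-05 percentage points for all 4 genes and from -0.00181 to 0.000255 without EXOSC2. Depth limits QRFP, IGLL5, RAB36 and PRDM12, which rest on few counts.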
